A study of Rattus norvegicus with 22 samples.

Results

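Depot dependence of the response to duodenal-jejunal bypass (DJB), in which the upper small intestine is left out of the path of food, was examined in RNA-seq libraries of rat fat. The comparison takes the DJB minus T2DM difference in visceral adipose tissue (VAT, from the mesentery) minus the same difference in subcutaneous adipose tissue (SAT, from the groin). It used all 22 of the 22 libraries, chosen by the group in their labels, and 14019 of the 24286 genes in the deposited table. The 4 groups were VAT-DJB (6 libraries), VAT-T2DM (6), SAT-DJB (5) and SAT-T2DM (5), where T2DM is the group with type 2 diabetes and no bypass in its label. All libraries were labelled as wild type, as fed a high-fat diet (HFD) and with 4 months in the title, and all shared a treatment text naming streptozotocin (STZ, a toxin of pancreatic beta cells) at 30 mg/kg and the bypass. Strain, sex and age of the rats, whether a sham operation was done, and whether libraries of a group came from separate rats are unstated in the labels. The p-values therefore measure the spread between these libraries, which may be partly technical, and a DJB minus T2DM difference can hold effects of surgery itself. The groups are models of the bypass in diabetic rats only, since no library from healthy rats was used here.

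Visceral and subcutaneous fat both store triglyceride in adipocytes and release fatty acids and hormones such as leptin and adiponectin. Mesenteric fat drains to the liver through the portal vein and lies beside the gut, whereas groin fat of the rat surrounds mammary gland tissue and a lymph node. Both depots also hold macrophages and lymphocytes. Interferon-gamma from lymphocytes induces immunity-related GTPases, guanylate-binding proteins and Ido1, the enzyme that begins the breakdown of tryptophan. The interaction of depot and bypass, the VAT difference minus the SAT difference, is far from 0 for a gene with unequal differences and near 0 for a gene with like ones.

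Several libraries stood apart in composition. Total counts were 58976705 to 88829000 in VAT-DJB, 58951508 to 79629743 in VAT-T2DM, 46824314 to 76835895 in SAT-DJB and 49155556 to 83319267 in SAT-T2DM. Over genes, the deviation of a library from the mean of all libraries fell with transcript length in VAT-T2DM libraries 2 and 5 (Spearman rho -0.51 and -0.38), where short transcripts were high. Genes of the bladder lining (urothelium) were high in VAT-T2DM libraries 2, 3 and 4, with a mean log2 CPM (CPM, counts scaled to one library total with TMM factors) over 13 marker genes of -3.66 to -1.004 in VAT-DJB, 1.95, 5.81, 6.54, 6.15, -0.37 and -1.61 in VAT-T2DM libraries 1 to 6, -2.10 to 0.97 in SAT-DJB and -0.62 to 0.77 in SAT-T2DM. Lymphocyte genes were high in SAT-DJB library 2, which also had the lowest mean log2 CPM of adipocyte markers, 3.61, with 6.28 to 9.24 in the other 4 SAT-DJB libraries and 5.55 to 7.73 in SAT-T2DM. Milk protein genes took 0.0787% to 7.79% of the counts in SAT-DJB and 0.0581% to 18.4% in SAT-T2DM, against at most 0.0560% in VAT-DJB and 0.0551% in VAT-T2DM. The results below are given with and without these libraries where they rest on them.

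A small group of interferon-inducible genes was lower after bypass in both depots, the similar size of the 2 differences being required by the rule below. A gene was counted as moving alike when the mean of its VAT and SAT differences passed an adjusted p of 0.05 (edgeR quasi-likelihood test, Benjamini-Hochberg over 14019 genes), both differences had the same sign, and the smaller was at least 50% of the larger on the log2 scale. The mean of the 2 differences was called for 36 genes (0.257% of those tested), of which 34 fell (0.243%) and 2 rose (0.0143%). Of these, 21 genes (0.15%) moved alike, 19 lower (0.136%) and 2 higher (0.0143%) after bypass. The 19 lower genes were Ido1, Irgm, Igtp, Gbp2, Gbp5, Irf1, Batf2, Wars1, Slc27a1, Acot1, Cds1, Rgs2, Plekhf1, Sh2d4a, Syt8, Magix, Uros, D2hgdh and the locus RGD1305184, and the 2 higher genes were Tec and Serpina12. From a list of 28 interferon response genes, 6 moved alike, all lower, against 0.15% of all tested genes. The members were chosen with earlier results of these data known, so the count describes the list and is no test of it. In bulk tissue, fewer cells of a type and less RNA per cell cannot be told apart, here and in the results that follow.

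Promoter sequences were available from RefSeq (build GRCr8) for 18 of the 21 genes that moved alike. Those of 4 interferon-inducible genes among them, each with a motif described below, are shown. Each runs 5′ to 3′ from 250 bases before to 50 bases after the annotated start. Capitals mark 2 motifs searched on both strands: the interferon-stimulated response element, ISRE (GAAANNGAAA), and the gamma-activated site, GAS (TTCNNNGAA).
Irgm promoter, chr10:33742529-33742828, minus strand: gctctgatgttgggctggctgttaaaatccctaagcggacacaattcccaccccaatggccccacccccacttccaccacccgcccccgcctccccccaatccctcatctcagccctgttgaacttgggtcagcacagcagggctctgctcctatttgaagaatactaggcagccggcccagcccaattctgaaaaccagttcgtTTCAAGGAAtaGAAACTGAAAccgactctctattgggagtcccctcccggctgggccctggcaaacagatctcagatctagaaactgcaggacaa
Igtp promoter, chr10:42874797-42875096, plus strand: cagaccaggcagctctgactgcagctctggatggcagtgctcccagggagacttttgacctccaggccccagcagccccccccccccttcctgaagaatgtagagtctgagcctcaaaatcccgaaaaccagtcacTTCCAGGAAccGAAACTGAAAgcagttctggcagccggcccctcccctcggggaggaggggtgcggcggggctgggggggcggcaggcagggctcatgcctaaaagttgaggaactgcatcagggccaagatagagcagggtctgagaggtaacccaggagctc
Gbp2 promoter, chr2:234005477-234005776, plus strand: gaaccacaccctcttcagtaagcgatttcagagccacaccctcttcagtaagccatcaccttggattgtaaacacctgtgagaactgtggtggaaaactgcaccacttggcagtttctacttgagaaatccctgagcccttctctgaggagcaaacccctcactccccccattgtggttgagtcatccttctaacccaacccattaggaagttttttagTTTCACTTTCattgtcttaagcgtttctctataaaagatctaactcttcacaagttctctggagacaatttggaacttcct
Irf1 promoter, chr10:38417685-38417984, plus strand: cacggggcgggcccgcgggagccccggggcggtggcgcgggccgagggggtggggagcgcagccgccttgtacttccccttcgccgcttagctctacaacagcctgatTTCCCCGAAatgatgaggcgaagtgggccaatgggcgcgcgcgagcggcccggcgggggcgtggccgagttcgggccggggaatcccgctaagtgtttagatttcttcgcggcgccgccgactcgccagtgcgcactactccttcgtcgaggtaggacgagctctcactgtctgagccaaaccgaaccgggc
An ISRE lay in the window of 5 of the 18 genes (27.8%), Irgm, Igtp, Gbp2, Gbp5 and Batf2, against 3.92% of 33469 rat promoters of the same length. A GAS lay in 3 (16.7%), Irgm, Igtp and Irf1, against 8.87% of all promoters, and either motif in 6 (33.3%), against 12.3%. In Irgm and Igtp both motifs were present, without overlap, the ISRE starting 34 and 103 bases before the annotated start. Wars1, also interferon-inducible, had neither motif in its window. These matches describe the letters of the windows and show no binding.

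Ido1, the tryptophan-degrading enzyme, shared the smallest adjusted p for the mean of the 2 differences with Irgm. It was at 0.399 to 1.35 CPM (median 0.871) in VAT-DJB, against 4.82 to 76.2 CPM (median 22.03) in VAT-T2DM. In SAT, libraries 1 to 5 were at 0.392, 0.199, 0.349, 0.131 and 0.292 CPM in SAT-DJB, against 11.7, 2.34, 84.6, 15.5 and 0.402 CPM in SAT-T2DM. The groups did not overlap in either depot, although SAT-T2DM library 5 lay just above the highest SAT-DJB library. The mean difference was -5.69 (SE 0.72) on the log2 scale (51.7-fold lower after bypass, adjusted p = 0.0012 by edgeR). Its VAT difference was -5.02 (SE 0.93) and its SAT difference -6.37 (SE 1.09), so the interaction was 1.35 (SE 1.19) with a 95% interval of -1.12 to 3.83. It was -0.26 without SAT-T2DM library 3, the highest for Ido1.

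Irgm and Igtp, immunity-related GTPases that act against intracellular microbes, had nearly equal differences in the 2 depots. Irgm was at 29.7 to 36.4 CPM (median 31.6) in VAT-DJB, against 53.1 to 119 CPM (median 63.7) in VAT-T2DM. In SAT libraries 1 to 5 it was at 30.3, 40.2, 31.4, 25.1 and 32.0 CPM after bypass, against 60.4, 54.3, 97.8, 116 and 58.3 CPM in SAT-T2DM. Every DJB library was below every T2DM library of its depot, and SAT-DJB library 2 was the highest DJB library of either depot. The mean difference was -1.22 (SE 0.16) (2.32-fold lower after bypass, adjusted p = 0.0012 by edgeR), and the interaction was 0.13 (SE 0.31), with a 95% interval of -0.52 to 0.79. Igtp was at 35.8 to 55.0 CPM (median 43.6) in VAT-DJB, against 65.7 to 365 CPM (median 119) in VAT-T2DM. Its SAT values were 48.3, 85.1, 49.8, 25.5 and 35.1 CPM in SAT-DJB libraries 1 to 5, against 131, 99.2, 278, 286 and 105 CPM in SAT-T2DM. Igtp also showed no overlap in either depot, with SAT-DJB library 2 closest to the T2DM range. Its mean difference was -1.84 (SE 0.28) (3.58-fold lower, adjusted p = 0.00819 by edgeR), and its interaction was 0.09 (SE 0.55) (95% interval -1.05 to 1.22). Of all tested genes, 4 (0.0285%) were lower in every DJB than in every T2DM library of both depots, and 2 (0.0143%) were higher in every one. These were Ido1, Irgm, Igtp and Wdr31 below, and Hnrnpm and Kpna1 above, where Wdr31, Hnrnpm and Kpna1 were named after their values were seen. Within 1 depot, DJB lay wholly below T2DM for 0.485% of genes in VAT and 0.913% in SAT, and wholly above it for 0.521% and 0.399%. No gene was non-overlapping in opposite directions (0 of 14019).

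Gbp2 and Gbp5 encode guanylate-binding proteins, which attack the membranes around intracellular bacteria. Gbp2 was at 88.8 to 125 CPM (median 118) in VAT-DJB, against 219 to 426 CPM (median 254) in VAT-T2DM, without overlap. In SAT, libraries 1 to 5 had 99.6, 192, 119.6, 73.0 and 98.6 CPM in SAT-DJB, against 264, 149.6, 691, 312 and 181 CPM in SAT-T2DM, and SAT-DJB library 2 lay within the T2DM range. The mean difference of Gbp2 was -1.39 (SE 0.23) (adjusted p = 0.0125 by edgeR) and its interaction 0.13 (SE 0.46) (95% interval -0.82 to 1.08). For Gbp5 the VAT and SAT differences were -1.41 and -1.85 (adjusted p of the mean 0.0474 by edgeR), with SAT-DJB library 2 at 103 CPM and the other 4 SAT-DJB libraries at 27.8 to 52.6 CPM. Irf1, a transcription factor that drives the interferon-gamma response, was at 54.3 to 102 CPM (median 81.3) in VAT-DJB, against 139 to 271 CPM (median 170.3) in VAT-T2DM. Its SAT libraries 1 to 5 had 63.2, 117, 103, 56.8 and 88.2 CPM after bypass and 124, 120.4, 253, 159.5 and 111 CPM in SAT-T2DM, with overlap from SAT-DJB library 2. The mean difference of Irf1 was -1.04 (SE 0.18) (adjusted p = 0.0199 by edgeR; interaction -0.38, 95% interval -1.14 to 0.37). Batf2, an interferon-inducible leucine zipper factor, had VAT and SAT differences of -1.81 and -2.76. Wars1, the tryptophanyl-tRNA synthetase and also interferon-inducible, had -1.19 and -2.10. Lymphocyte genes and interferon response genes were both high in SAT-DJB library 2, where the mean log2 CPM of the 28 interferon response genes was 6.19, against 4.42 to 4.71 in the other 4 SAT-DJB libraries; the part of lymphocytes in the result was not tested.

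Over the whole interferon response list, of 28 tested genes, 17 were lower and 2 higher after bypass in both depots, against 26% and 29.1% of all tested genes. The median difference was -0.88 in VAT and -0.43 in SAT, beside -0.03 and 0.05 over all genes, and the median interaction was -0.14, beside -0.07. No member had an interaction with an unadjusted p under 0.05, against 14% of all tested genes. The 22 members other than the 6 that moved alike had medians of -0.60 in VAT and -0.11 in SAT, and 11 of them were lower in both depots. With TPM-scaled values the median interaction of the list was 0.18, beside 0.28 over all genes, so it lay below the all-gene median under both scalings. The list median was 0.42 without SAT-DJB library 2, against -0.39 to -0.01 when any other single library was left out. The antiviral genes Mx1, Oasl and Irf7, induced mainly by type I interferon and picked after their values were seen, had SAT differences of 1.51, 0.99 and 0.50, opposite to those of the GTPases, and none passed the test in either depot.

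**Figure D1:**
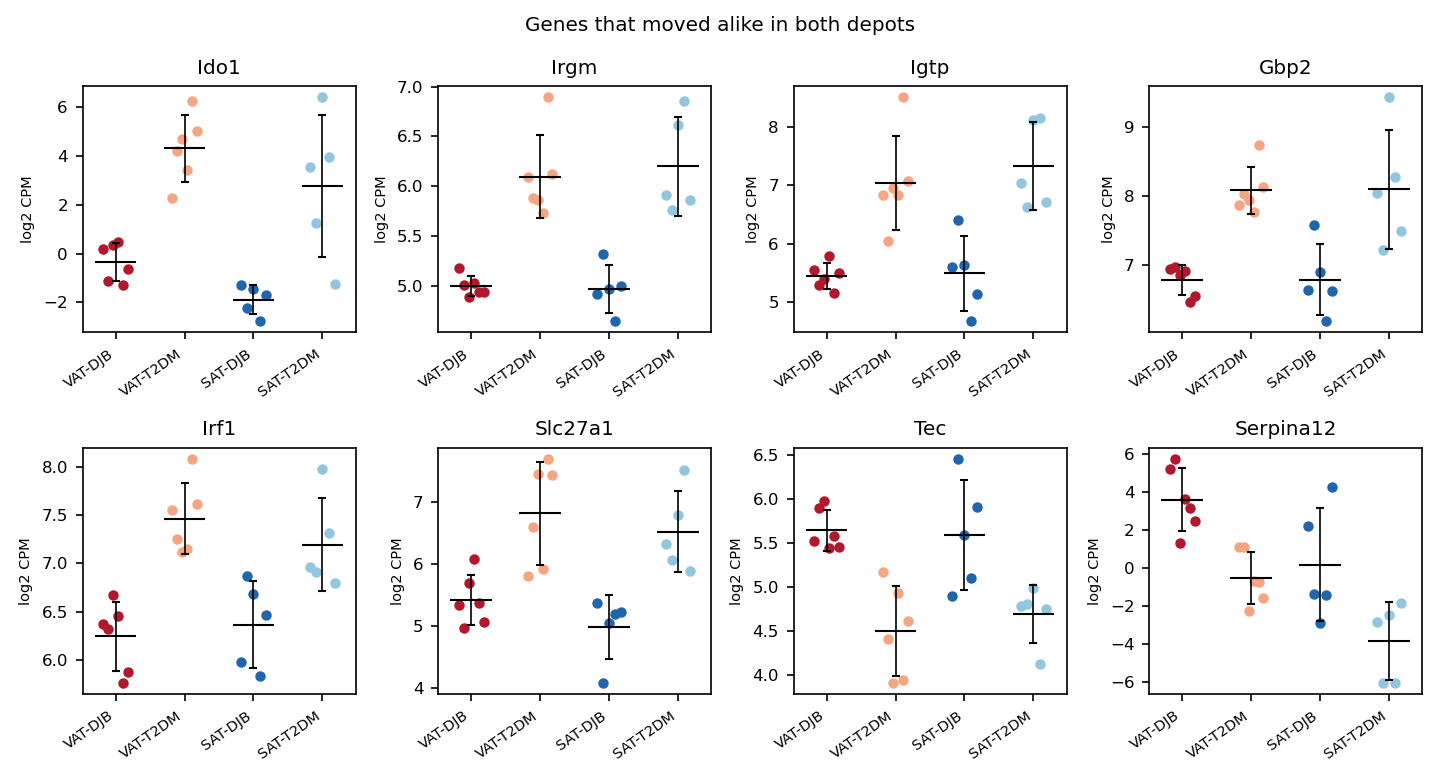
Expression of 8 genes that moved alike, in log2 CPM on the vertical axis, for the libraries of VAT-DJB, VAT-T2DM, SAT-DJB and SAT-T2DM (1 point per library; black line and bars, mean ± SD). Ido1, Irgm and Igtp show no overlap of DJB and T2DM libraries in either depot, and Tec and Serpina12 are higher after bypass.

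Genes of fatty acid handling were also among those that moved alike. Slc27a1, a fatty acid transport protein of muscle and fat, was at 31.4 to 67.4 CPM (median 41.0) in VAT-DJB, against 56.0 to 208 CPM (median 135) in VAT-T2DM. In SAT it was at 41.3, 17.0, 33.2, 36.7 and 37.4 CPM in SAT-DJB libraries 1 to 5, against 80.3, 67.4, 111, 184 and 59.4 CPM in SAT-T2DM, with no overlap in this depot. The mean difference was -1.57 (SE 0.26) (2.96-fold lower, adjusted p = 0.0123 by edgeR), and the interaction was 0.06 (SE 0.51), with a 95% interval of -0.99 to 1.12. Acot1, which splits acyl-CoA into fatty acid and coenzyme A, had VAT and SAT differences of -2.01 and -2.69 (adjusted p of the mean 0.025 by edgeR). Its SAT-T2DM libraries 1 to 5 had 27.7, 19.3, 20.7, 39.5 and 1.71 CPM, so library 5, the one with few milk protein reads, stood far below the other 4. Cds1, an enzyme of phospholipid synthesis, differed by -3.36 in VAT and -1.69 in SAT (adjusted p of the mean 0.0123 by edgeR). Cds1 reached 52.1 and 44.1 CPM in VAT-T2DM libraries 3 and 4, both with urothelial genes, and its interaction of -1.67 had a 95% interval of -3.31 to -0.04. Without VAT-T2DM libraries 2, 3 and 4 the VAT difference was -2.04, against -1.69 in SAT. Rgs2, a brake on G protein signalling, differed by -1.78 in VAT and -0.91 in SAT, and the mitochondrial enzyme D2hgdh by -0.99 and -0.78. Syt8 was high in VAT-T2DM libraries 2, 3 and 4 (77.6, 53.9 and 27.2 CPM), the libraries with urothelial genes, against 1.54 to 3.22 CPM in the other 3; without VAT-T2DM libraries 2, 3 and 4 its VAT difference was -1.15, against -4.68 with them, and the call was lost (adjusted p = 0.244 by edgeR).

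The genes that rose in both depots were Tec, a tyrosine kinase of blood cells, and Serpina12, the adipokine vaspin. Tec was at 43.4 to 63.2 CPM (median 46.9) in VAT-DJB, against 15.0 to 36.0 CPM (median 22.9) in VAT-T2DM, without overlap. In SAT, libraries 1 to 5 were at 29.7, 88.1, 48.1, 34.4 and 60.0 CPM in SAT-DJB, against 27.6, 27.9, 31.7, 17.4 and 26.9 CPM in SAT-T2DM, where SAT-DJB library 1 lay inside the T2DM range. Its mean difference was 1.04 (SE 0.19) (adjusted p = 0.025 by edgeR), and its interaction 0.10 (SE 0.38) had a 95% interval of -0.69 to 0.90. Serpina12, which is known to improve glucose tolerance in obese mice, was at 2.49 to 53.3 CPM (median 10.7) in VAT-DJB, against 0.197 to 2.12 CPM (median 0.604) in VAT-T2DM. Its SAT values were 4.58, 0.372, 0.121, 0.366 and 19.3 CPM in SAT-DJB libraries 1 to 5, against 0.126, 0, 0.165, 0 and 0.268 CPM in SAT-T2DM. Serpina12 did not overlap in VAT, whereas in SAT the high values were those of libraries 1 and 5. The mean difference of Serpina12 was 4.88 (SE 0.92) (adjusted p = 0.0266 by edgeR), with an interaction of -1.13 (SE 1.57) and a wide 95% interval of -4.39 to 2.14. Without SAT-DJB library 5 the interaction was 0.73 and the call of the mean was lost (adjusted p = 0.0679 by edgeR). The adenosine receptor gene Adora2a, next in order among the higher genes, had differences of 1.09 in VAT and 0.82 in SAT and lay just outside the threshold, with an adjusted p of 0.0514 by edgeR for their mean.

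How firmly these genes held differed between them. Across 37 other ways of processing, or of leaving libraries out, that gave a mean difference, all 21 genes kept the same sign in both depots. Passing here refers to the adjusted p of the mean alone, not to the sizes of the VAT and SAT differences. Ido1 and Irgm passed in all 37, with a largest adjusted p of 0.0387 and 0.0495. Igtp passed in 34 and Cds1, Slc27a1, Gbp2, Wars1 and Irf1 each in 33, whereas Batf2 passed in 19, Gbp5 in 15, and Rgs2 and Magix in 11. The number of genes that moved alike was 389 with DESeq2 (2.77% of those tested), 5 with limma on log2(FPKM + 1) and 2 without VAT-DJB libraries 5 and 6 or without VAT-DJB libraries 1 and 2. Leaving out 1 library moved this number widely. It was 7 to 13 without any 1 of VAT-DJB libraries 1, 2, 3, 5 and 6, VAT-T2DM libraries 3 and 4, SAT-DJB libraries 3 and 5 and SAT-T2DM libraries 1, 3 and 4. It was 169, 44 and 119 without VAT-T2DM library 1, 5 or 6, 32 and 212 without SAT-DJB library 2 or 4, and 184 without SAT-T2DM library 5. None of Ido1, Irgm, Igtp, Gbp2, Irf1, Wars1, Slc27a1 and Cds1 lost the call of the mean when 1 library was left out. Tec lost it without VAT-T2DM library 3, SAT-T2DM library 1 or 4 or SAT-DJB library 5. In some of these runs Cds1, Wars1 and Irf1 kept that call but had differences too unequal to count as moving alike. Cds1 had -3.593 in VAT and -1.679 in SAT without VAT-T2DM library 1. Wars1 had -0.96 and -2.099 without VAT-T2DM library 6, and Irf1 -1.228 and -0.5905 without SAT-T2DM library 3. Of the 21 genes, 8 never lost the call of the mean when any single library was left out, and the other 13 lost it for 4 to 15 of the 22 libraries.

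Across all genes the VAT and SAT differences were weakly related. The VAT difference was called for 658 genes (4.69%), 59 higher (0.421%) and 599 lower (4.27%), but for 1 to 7 genes when any 1 of VAT-DJB libraries 1, 2, 3, 5 and 6 was left out, for 67 and 159 without VAT-T2DM library 2 or 5, and for 1744 without VAT-T2DM library 1. In SAT edgeR called 0 genes and DESeq2 168, and 1259 (8.98%) had an unadjusted p under 0.05 in edgeR. Without SAT-DJB library 2 or 3 or SAT-T2DM library 5, edgeR called 29, 14 and 9 in SAT. Over the 14019 genes the 2 differences had a Pearson r of 0.116 and a Spearman rho of 0.114, as a description across genes, which are not independent replicates. The signs matched for 7722 genes (55.1%). Among the 569 genes with both differences at least 1 on the log2 scale (a 2-fold change), 330 were lower in both depots and 47 higher in both. A further 152 were lower in VAT and higher in SAT, and 40 were higher in VAT and lower in SAT.

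**Figure D2:**
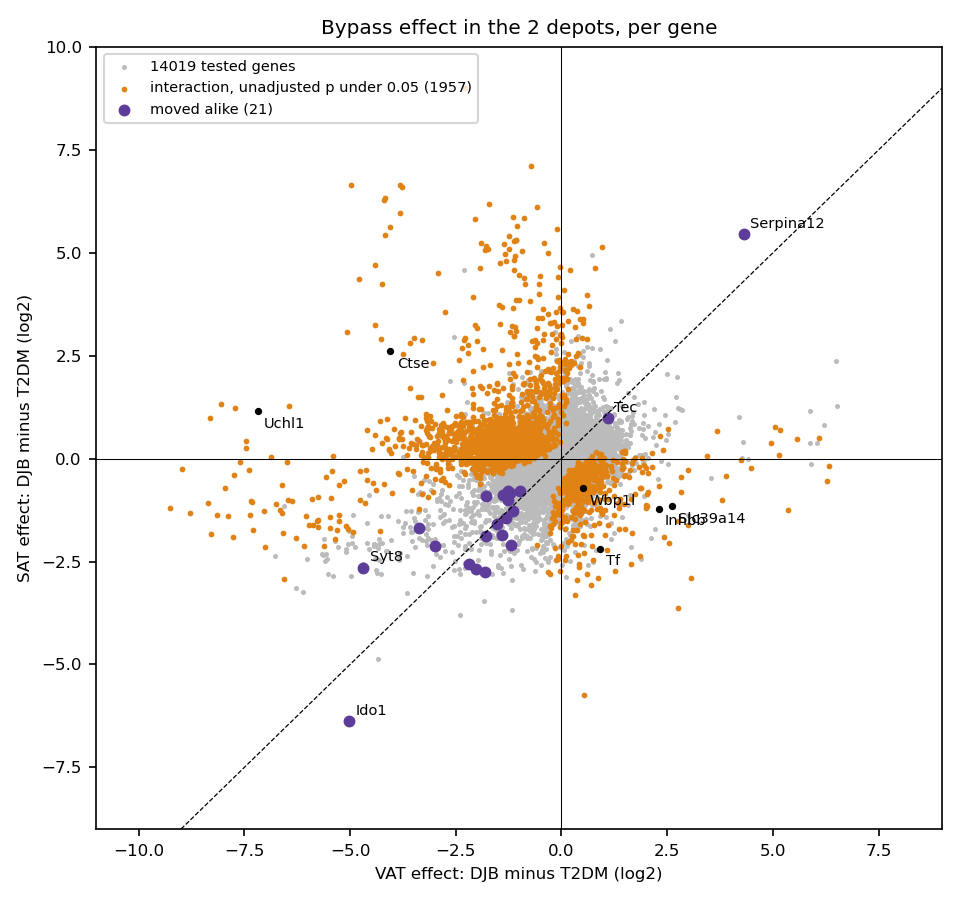
Each point is 1 of 14019 genes, with the DJB minus T2DM difference in VAT on the horizontal axis and in SAT on the vertical axis (both log2). Purple points are the 21 genes that moved alike, orange points the 1957 genes with an unadjusted interaction p under 0.05, and the dashed line marks equal differences.

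The test of the interaction called 0 of 14019 genes by edgeR, the smallest adjusted p being 0.120. At an unadjusted p under 0.05 there were 1957 genes (14%), of which 479 (3.42%) had a higher and 1478 (10.5%) a lower difference in VAT than in SAT. The median 95% interval reached 1.10 on either side of the estimate. For a typical gene, an estimated interaction of a 2-fold change was thus not separated from 0 even before adjustment, and a call after adjustment asks for more. DESeq2 called 123 genes (0.877%), 23 higher (0.164%) and 100 lower (0.713%). With limma the count was 0 for both pseudocounts, and 898 genes (pseudocount of 1) and 840 (0.1) had an unadjusted p under 0.05. The share of higher genes differed between ways of processing. It was 24.5% in edgeR with TMM scaling, 45.5% with TPM scaling, 60.2% with limma on log2(FPKM + 1), 56.3% with the replicate number as a block (364 higher and 282 lower) and 46.3% without VAT-T2DM libraries 2 and 5 and SAT-DJB library 2. TPM scaling and limma moved the median interaction of all genes to 0.28 and 0.18, against -0.07. Of the 1957 genes, 875 (44.7%) had a difference of at least 1 in VAT alone, 298 (15.2%) in SAT alone, 163 (8.33%) in both with opposite signs and 42 (2.15%) in both with the same sign. By the rule that required a called interaction, 0 genes moved oppositely; DESeq2 gave 44. The highest levels often sat in a single library: 52.7% of the 1478 lower genes had their highest level in VAT-T2DM library 2, 19.7% in SAT-DJB library 2 and 15% in VAT-T2DM library 5, and 42.8% of the 479 higher genes in SAT-T2DM library 4.

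Among genes with a higher difference in VAT than in SAT, the smallest p belonged to Wbp1l, Tf, Inhbb, Slc39a14, Usp54, Zfyve27, Igsf8 and Cfb, none of which passed in edgeR (adjusted p 0.120 to 0.185) and all of which were called by DESeq2. Wbp1l, a membrane adaptor gene, was at 93.9 to 167 CPM (median 127) in VAT-DJB, against 76.8 to 106 CPM (median 89.2) in VAT-T2DM. In SAT, libraries 1 to 5 were at 100.5, 70.6, 80.2, 71.1 and 95.9 CPM in SAT-DJB, against 151, 128, 125, 149.5 and 135 CPM in SAT-T2DM, all lower after bypass. The interaction was 1.23 (SE 0.24) on the log2 scale (VAT difference 0.51, SAT difference -0.72). The SAT groups did not overlap, and in VAT the highest VAT-T2DM library, library 1, lay above VAT-DJB libraries 3 and 4.

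Tf, the iron carrier transferrin, was at 261 to 987 CPM (median 521) in VAT-DJB, against 170.3 to 447 CPM (median 272) in VAT-T2DM. Its SAT libraries 1 to 5 had 923, 139, 301, 570.1 and 455 CPM in SAT-DJB, against 1311, 2162, 2277, 4292 and 832 CPM in SAT-T2DM. Its SAT difference was -2.19 (SE 0.49) and its VAT difference 0.91 (SE 0.43), for an interaction of 3.10 (SE 0.65) (adjusted p = 0.12 by edgeR). The highest Tf value was that of SAT-T2DM library 4, which also had the largest share of milk protein reads (18.4%), and in SAT-T2DM library 5, with 0.0581%, Tf was at 832 CPM; the part of mammary cells was not tested.

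Inhbb encodes the activin B subunit, an adipocyte-secreted member of the TGF-beta family. It was at 43.3 to 154 CPM (median 103) in VAT-DJB, against 7.16 to 29.9 CPM (median 20.8) in VAT-T2DM, without overlap, and rose 4.92-fold in VAT-DJB (adjusted p = 0.0329 by edgeR), in a test whose calls nearly all depend on each of 5 VAT-DJB libraries, as given above. In SAT the libraries 1 to 5 had 21.0, 5.798, 10.0, 54.1 and 37.7 CPM in SAT-DJB, against 91.5, 58.7, 64.0, 69.9 and 14.7 CPM in SAT-T2DM, with overlap. The interaction of Inhbb was 3.51 (SE 0.76) (adjusted p = 0.12 by edgeR). Slc39a14, a zinc and iron importer induced in inflammation, was at 404 and 278 CPM in VAT-DJB libraries 5 and 6 and at 24.0 to 54.4 CPM in the other 4, against 14.4 to 29.1 CPM (median 23.3) in VAT-T2DM. Cfb, complement factor B, had the same pair of high libraries, 838 and 1453 CPM, with 174 to 246 CPM in the other 4, against 96.9 to 189 CPM (median 119.7) in VAT-T2DM. Their interactions were 3.77 (SE 0.83) and 3.14 (SE 0.81). The remaining 3, Usp54, Zfyve27 and Igsf8, had interactions of 2.07, 0.92 and 2.71, each from a higher value in VAT-DJB and a lower one in SAT-DJB than in the T2DM group of the depot. For Igsf8 the high VAT values were again those of VAT-DJB libraries 5 and 6, with 13.6, 17.95, 13.0, 7.81, 52.6 and 58.5 CPM in VAT-DJB libraries 1 to 6, against 9.94 to 17.997 CPM (median 12.0) in VAT-T2DM.

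**Figure D3:**
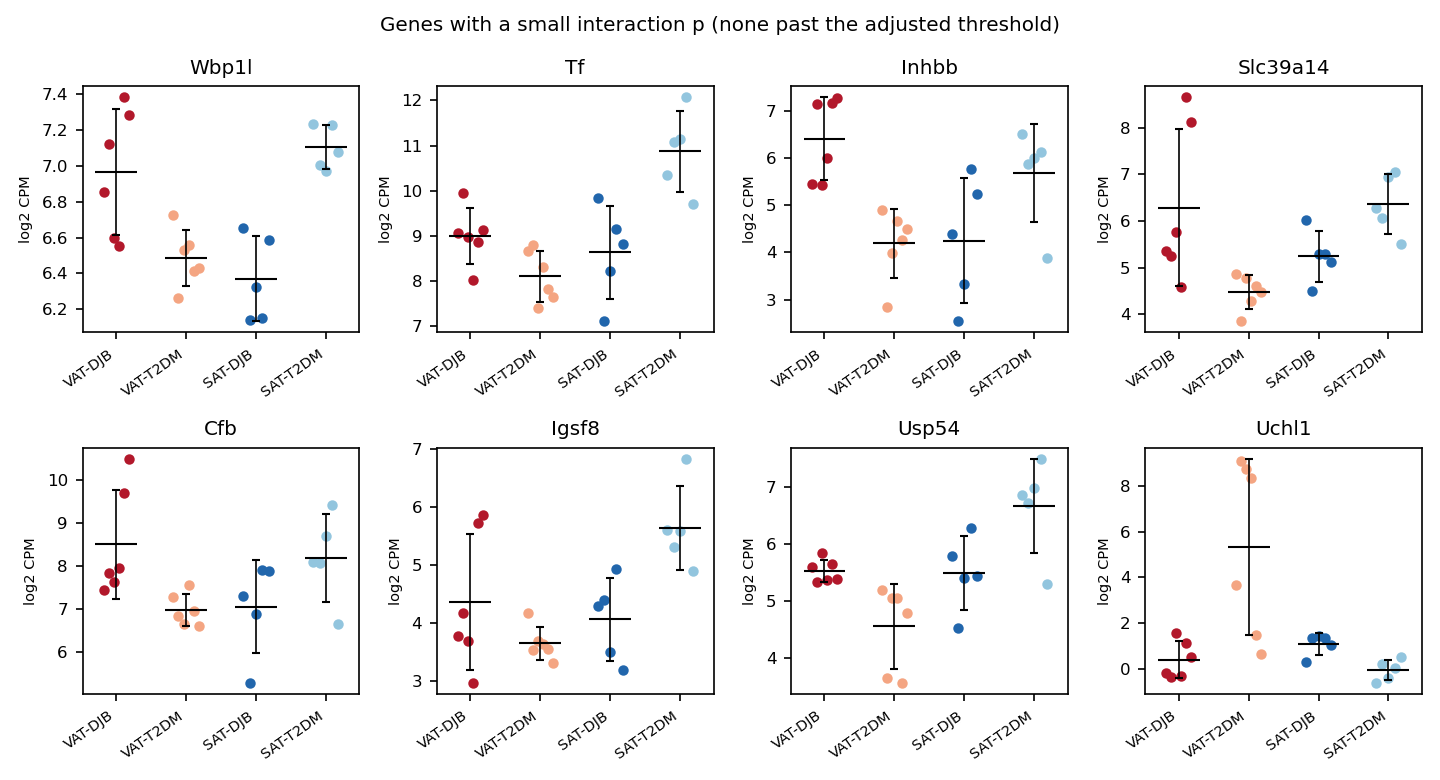
Expression of 8 genes with a small interaction p, in log2 CPM on the vertical axis, for VAT-DJB, VAT-T2DM, SAT-DJB and SAT-T2DM (1 point per library; black line and bars, mean ± SD). On average Wbp1l, Tf, Inhbb and Usp54 lie higher after bypass in VAT and lower in SAT, and the high Uchl1 values are confined to VAT-T2DM libraries 2, 3 and 4, with library 1 between.

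Among genes with a lower difference in VAT than in SAT, those with the smallest p were Uchl1, Sptssb, Ctse, Krt7, the 7SL RNA rows Metazoa_SRP and Rn7sl1, Mrps36 and Upk3a, none of which passed in edgeR. Uchl1, a deubiquitinating enzyme, was at 0.782 to 3.00 CPM (median 1.14) in VAT-DJB, against 12.7, 543, 426, 330.0, 2.78 and 1.55 CPM in VAT-T2DM libraries 1 to 6. Its SAT libraries 1 to 5 had 1.22, 2.57, 2.70, 2.54 and 2.05 CPM in SAT-DJB, against 0.646, 1.15, 0.750, 1.02 and 1.41 CPM in SAT-T2DM. The interaction of Uchl1 was -8.33 (SE 1.48) (adjusted p = 0.12 by edgeR). In edgeR it passed only without VAT-T2DM library 5 (-8.62, adjusted p = 0.0232) or library 6 (-8.64, adjusted p = 0.0128), the 2 lowest VAT-T2DM libraries for Uchl1. Its high values were held by VAT-T2DM libraries 2, 3 and 4. Without these edgeR called 0 genes, as it did with all 22 libraries, so that count does not bear on Uchl1. Upk3a, a uroplakin plaque protein, and Krt7, a keratin of simple epithelia, were high in VAT-T2DM libraries 2, 3 and 4, at 481, 326 and 149 CPM for Upk3a and at most 1.53 CPM in VAT-DJB. Of 13 urothelium markers, 11 had a lower interaction at an unadjusted p under 0.05, against 10.5% of all tested genes, with a median of -6.48, which was -1.48 without VAT-T2DM libraries 2, 3 and 4. Ctse, an aspartic protease, was also high in SAT-DJB library 2 (269 CPM), where lymphocyte genes were high. Metazoa_SRP was at 94.1 CPM in VAT-T2DM library 2 and 122 CPM in SAT-DJB library 4, and at 0.111 to 4.44 CPM in the other 20 libraries. Rn7sl1 gave nearly the same values, and reads shared between 7SL copies could have been counted under either row. Among the 100 rows with the smallest interaction p, 34 were unnamed loci, and their summed level was 26496 CPM in SAT-DJB library 4, with 2167 CPM, the next highest, in VAT-T2DM library 2.

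The nuclear genes of mitochondrial respiration and of the ribosome had lower interactions for nearly every member. Oxidative phosphorylation genes, which encode the respiratory chain and ATP synthase, had a median difference of -1.97 in VAT and 0.12 in SAT, beside -0.03 and 0.05 over all genes. Of 74 tested, 70 had a lower interaction at an unadjusted p under 0.05, against 10.5% of all genes, with a median interaction of -2.21. Cox5b, a subunit of cytochrome c oxidase, was at 15.3 to 22.3 CPM (median 20.9) in VAT-DJB, against 18.4, 609, 26.0, 33.1, 192 and 38.2 CPM in VAT-T2DM libraries 1 to 6. In SAT it was at 13.3, 45.9, 23.0, 40.4 and 27.3 CPM in SAT-DJB libraries 1 to 5, against 23.3, 19.9, 19.96, 28.9 and 19.7 CPM in SAT-T2DM. Only VAT-T2DM libraries 2 and 5 stood above the range of the rest for Cox5b, and they were the 2 libraries in which short transcripts were high. The median interaction of the list was -1.14 with the length trend removed, -1.07 with TPM scaling, -1.27 without VAT-T2DM library 2, -0.48 without VAT-T2DM libraries 2 and 5, and -0.46 without those and SAT-DJB library 2. The part of transcript length in this result was not tested beyond these values.

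Cytosolic ribosomal protein genes, which are short, had a median difference of -2.14 in VAT and 0.65 in SAT, and 41 of 43 had a lower interaction at an unadjusted p under 0.05, against 10.5% of all genes. Rpl32, of the large subunit, was at 94.1 to 153 CPM (median 139) in VAT-DJB, against 112, 3489, 145, 149, 332 and 222 CPM in VAT-T2DM libraries 1 to 6. In SAT, Rpl32 was at 94.99, 656, 271, 324 and 195 CPM in SAT-DJB libraries 1 to 5, against 162, 137, 106, 141 and 203 CPM in SAT-T2DM. VAT-T2DM library 2 and SAT-DJB library 2 each held the highest value of their depot. The median interaction of these genes was -2.70, with -0.98 without VAT-T2DM library 2 and -0.43 without VAT-T2DM libraries 2 and 5 and SAT-DJB library 2. The 13 genes encoded in the mitochondrion itself had a median difference of 0.11 in VAT and 1.37 in SAT, and 13 of 13 were higher in SAT-DJB. Of all tested genes, 29.1% were higher in both depots and 26% in SAT alone. The mitochondrial share of counts was 29.5% ± 11.7 in VAT-DJB, 27.4% ± 11.2 in VAT-T2DM (SD, n = 6 each), 22.7% ± 8.42 in SAT-DJB and 9.58% ± 4.19 in SAT-T2DM (SD, n = 5 each).

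**Figure D4:**
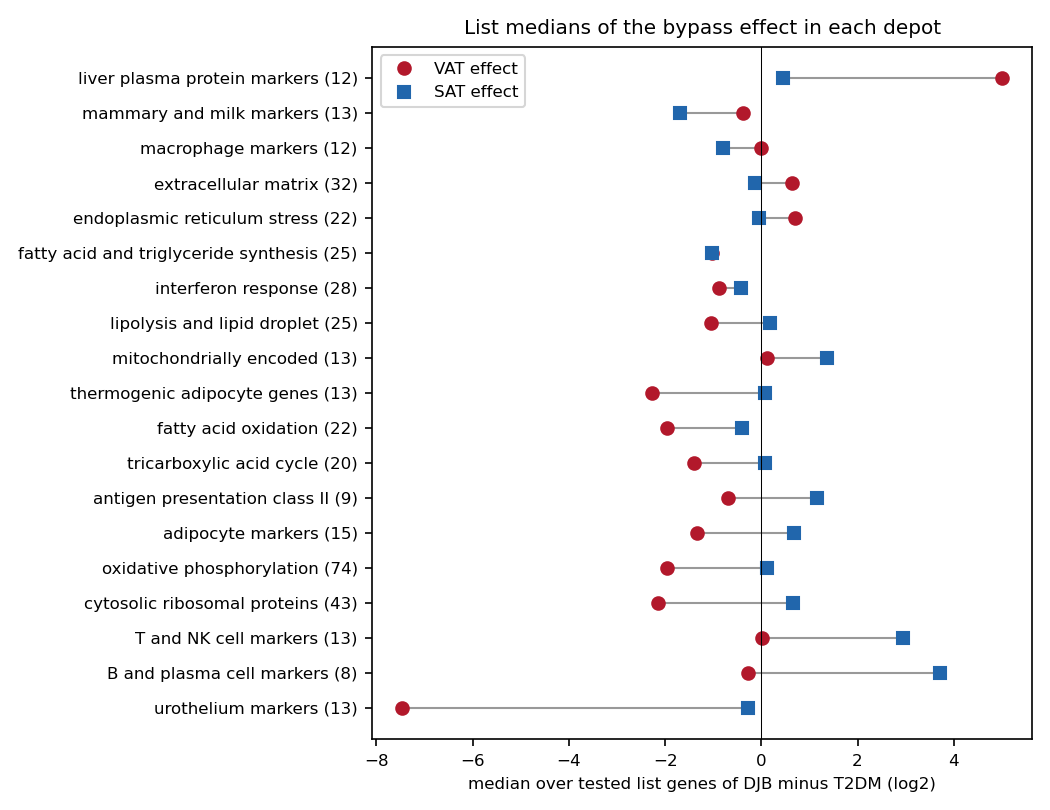
Median DJB minus T2DM difference (log2, horizontal axis) over the tested genes of 19 lists, with the number tested in brackets; circles are VAT, squares SAT, and lists run from the highest interaction median at the top to the lowest. Liver plasma protein markers have a high median in VAT, urothelium markers a low one in VAT and lymphocyte markers a high one in SAT, with high levels in the libraries named in the text.

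Adipocyte genes had negative interactions, and their SAT direction turned with 1 library. Of 15 tested adipocyte markers, 14 were lower in VAT-DJB and 15 higher in SAT-DJB than in the T2DM group, with median differences of -1.34 and 0.68. All 15 interactions were negative, against 54.4% of all genes, and 9 had an unadjusted p under 0.05, against 10.5%; none passed after adjustment in edgeR. Adipoq, the hormone adiponectin, was at 741 to 2803 CPM (median 1079) in VAT-DJB, against 1434 to 7216 CPM (median 2530.3) in VAT-T2DM. In SAT libraries 1 to 5, Adipoq was at 334, 79.5, 116, 322 and 2576 CPM in SAT-DJB, against 191, 102, 638, 166 and 218 CPM in SAT-T2DM. SAT-DJB library 5 was the 1 high value, and the interaction was -2.56 (SE 1.04) (adjusted p = 0.288 by edgeR). Cidec, which fuses lipid droplets, and Slc2a4, the insulin-responsive glucose transporter, had interactions of -3.47 and -1.76. The median interaction of the markers stayed negative under every alternative run, between -2.35 and -0.77, and was nearest to 0 without SAT-DJB library 5. Without that library the median SAT difference was -0.66, against 0.68 with it.

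Thermogenic and fatty acid oxidation genes were highest in VAT-T2DM library 5. The mean log2 CPM of the thermogenic genes was 2.03 to 3.35 in VAT-DJB and 3.88 to 7.45 in VAT-T2DM, without overlap. In SAT it was -0.13 to 3.47 in SAT-DJB and 2.53 to 2.82 in SAT-T2DM. Ucp1, the uncoupling protein of brown fat, was at 0.369, 0, 7.90, 0, 5.16 and 0 CPM in VAT-DJB libraries 1 to 6, against 23.4, 77.3, 16.2, 265, 2944 and 1.20 CPM in VAT-T2DM. It was at most 5.99 CPM in SAT-DJB and 7.68 CPM in SAT-T2DM. Cpt1b, which admits long-chain fatty acids to mitochondria, was at 13.5 to 31.5 CPM (median 18.8) in VAT-DJB, against 17.0 to 1047 CPM (median 78.3) in VAT-T2DM, the highest again in library 5. Of 22 fatty acid oxidation genes 12 had a lower interaction at an unadjusted p under 0.05, against 10.5% of all genes, with a median of -1.55, and of 13 thermogenic genes 6, with a median of -1.50. Without VAT-T2DM libraries 2 and 5 the medians were -0.51 and -1.10. Without library 5 alone the fatty acid oxidation median was -0.69, and the thermogenic median was -0.86 without SAT-DJB library 5 and -2.43 without SAT-T2DM library 3. Of 20 tricarboxylic acid cycle genes 17 had a lower interaction by the same measure, against the same 10.5%, with a median of -1.58, which was -0.66 without the same 2 libraries and -0.88 without library 5 alone.

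Of 25 tested genes of fatty acid and triglyceride synthesis, 17 were lower in both depots, against 26% of all genes, with medians of -1.03 in VAT and -1.03 in SAT. The median interaction was 0.41, between -3.04 and 2.46 for single genes, and 15 were positive, against 45.6% of all genes. In SAT, libraries 1 to 5 had a mean log2 CPM of 5.98, 4.29, 4.32, 6.31 and 6.14 in SAT-DJB, against 7.16, 6.62, 7.05, 7.57 and 4.53 in SAT-T2DM. Acacb, the acetyl-CoA carboxylase that guards entry of fatty acids to mitochondria, differed by -2.52 and -2.50, Srebf1, the lipogenic transcription factor, by -1.39 and -1.82, and Thrsp, a lipogenic nuclear protein, by -1.77 and -2.05; these 3 were picked after their values were seen, and none passed. The triglyceride-forming enzymes Agpat2, Dgat1 and Dgat2 had VAT differences of -2.37, -1.83 and -1.37 and SAT differences of 0.67, 0.05 and 0.67, none of which passed. Fads1, a desaturase, went the other way, with 0.10 in VAT and -2.36 in SAT. Lipogenic genes are also high in milk-secreting cells, and in SAT the milk protein share was 0.0787% to 7.79% in SAT-DJB and 0.0581% to 18.4% in SAT-T2DM; the part of these cells was not tested. Of the 13 mammary and milk markers 11 were lower in SAT-DJB, with median differences of -0.39 in VAT and -1.70 in SAT. Of all tested genes, 26% were lower in both depots and 18.9% in SAT alone.

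**Figure D5:**
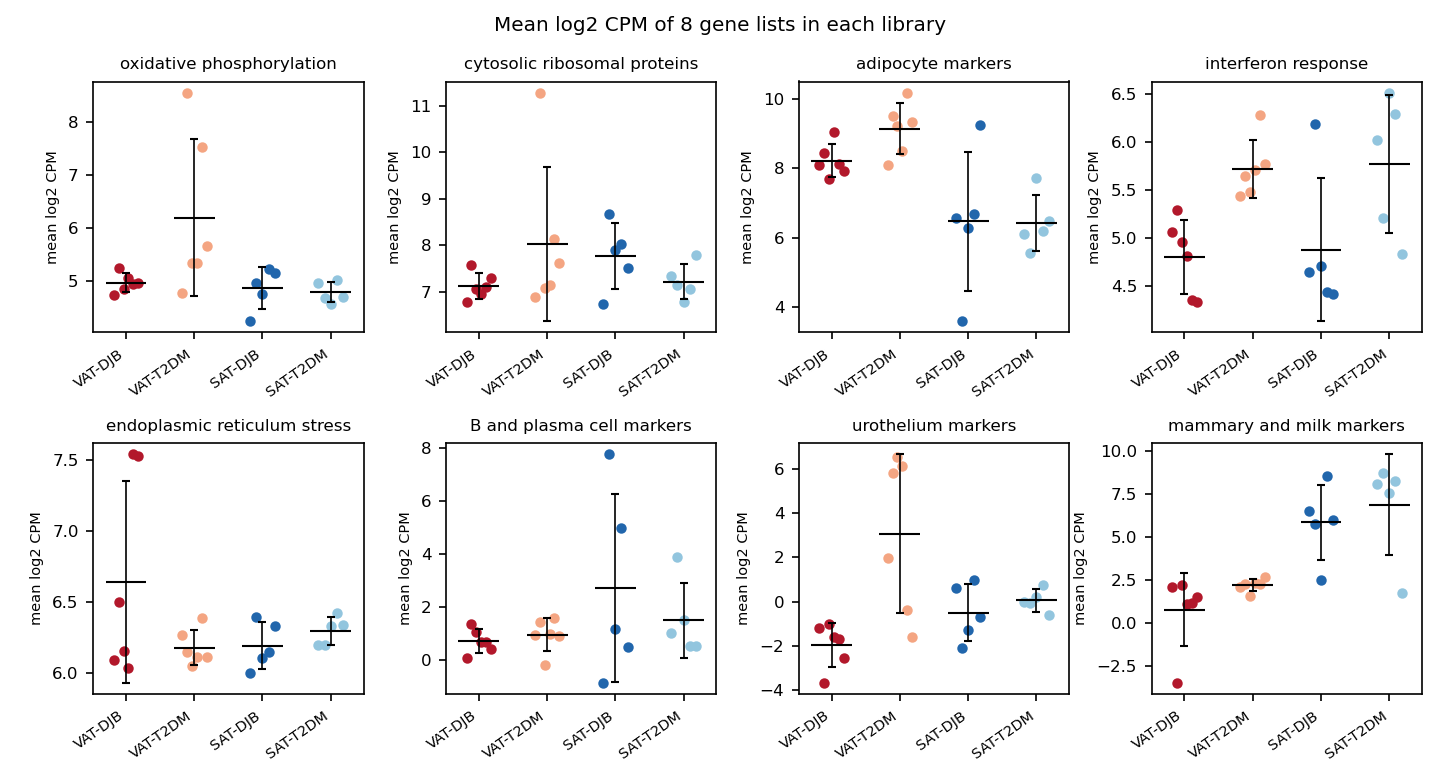
Mean log2 CPM (vertical axis) of 8 gene lists in each library of VAT-DJB, VAT-T2DM, SAT-DJB and SAT-T2DM (1 point per library; black line and bars, mean ± SD). Single libraries stand apart in 7 panels, such as VAT-T2DM library 2 for ribosomal proteins and VAT-DJB libraries 5 and 6 for endoplasmic reticulum stress.

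Of 22 endoplasmic reticulum stress genes 11 had a higher interaction at an unadjusted p under 0.05 and 1 a lower one, against 3.42% and 10.5% of all genes, with median differences of 0.70 in VAT and -0.05 in SAT. Hspa5, the chaperone BiP, was at 349, 481, 337, 292, 2043 and 2186 CPM in VAT-DJB libraries 1 to 6, against 195 to 411 CPM (median 302) in VAT-T2DM, and at 392, 457, 264, 389.6 and 526.1 CPM in SAT-DJB, against 363, 407, 486, 519 and 407 CPM in SAT-T2DM. Libraries 5 and 6 of VAT-DJB were the high ones, and without them the median interaction of the list was 0.15, against 0.78. Pdia4, a disulfide isomerase, had an interaction of 1.41 (SE 0.48), and the transcription factor Xbp1 1.03 (SE 0.36), the last from a SAT difference of -0.88. Ddit3, a stress-induced transcription factor picked after its value was seen, had an interaction of -0.94.

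Of 32 matrix genes 31 had a positive interaction, against 45.6% of all genes, with a median of 0.80. At an unadjusted p under 0.05, 3 had a higher and 0 a lower interaction, against 3.42% and 10.5% of all genes. Col1a1, a fibrillar collagen chain picked after its values were seen, differed by 0.72 in VAT and -1.13 in SAT. Timp1, an inhibitor of matrix proteases, was at 378 and 219 CPM in VAT-DJB libraries 5 and 6 and at 8.12 to 16.3 CPM in the other 4, against 9.65 to 74.6 CPM (median 18.5) in VAT-T2DM. Tgfb3, a growth factor for matrix-forming cells, was at 89.5, 15.4, 30.4, 148 and 23.4 CPM in SAT-DJB libraries 1 to 5, against 349, 344, 173, 304 and 76.5 CPM in SAT-T2DM, and differed by 0.16 in VAT. The list median was 0.13 without SAT-T2DM library 5, 1.53 without SAT-DJB library 1, 1.33 without VAT-T2DM library 1 and 0.33 without VAT-T2DM libraries 2 and 5 and SAT-DJB library 2.

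Plasma proteins of the liver were high in 2 VAT-DJB libraries. Serpina1, the protease inhibitor alpha-1 antitrypsin, was at 59.8, 495, 1.13, 0.714, 0.171 and 11.8 CPM in VAT-DJB libraries 1 to 6, against 0.171 to 5.91 CPM (median 0.386) in VAT-T2DM. In SAT it reached 18.6 CPM in SAT-DJB and 10.8 CPM in SAT-T2DM. Of 12 tested liver markers 6 had a higher interaction at an unadjusted p under 0.05, against 3.42% of all genes, with a median of 4.37, and without VAT-DJB libraries 1 and 2 the median was -0.39. It was 1.16 without VAT-DJB library 2 alone and 2.40 without SAT-T2DM library 5. Macrophage markers had median differences of -0.01 in VAT and -0.79 in SAT (median interaction 0.80, and 0.15 without SAT-T2DM library 5), and Cd163, the haemoglobin scavenger receptor, was highest in VAT-DJB libraries 5 and 6 (451 and 694 CPM), against at most 163 CPM in VAT-T2DM, and at 369 CPM in SAT-T2DM library 5, against at most 97.5 CPM in the other 4.

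Lymphocyte genes had high median differences in SAT and medians near 0 in VAT. The 13 T and NK cell markers had median differences of 0.01 in VAT and 2.95 in SAT, and the 8 B and plasma cell markers of -0.29 and 3.71. Cd79a, the B cell receptor chain, was at 1.11, 412, 1.88, 69.2 and 1.31 CPM in SAT-DJB libraries 1 to 5, against 1.31, 14.1, 2.48, 1.16 and 1.16 CPM in SAT-T2DM, and at most 2.78 CPM in VAT-DJB and 1.51 CPM in VAT-T2DM. SAT-DJB libraries 2 and 4 held the high values, and SAT-T2DM library 2 the next. Without SAT-DJB library 2 the median interactions were -0.40 for T and NK cells and -1.54 for B cells, against -2.93 and -4.24, and leaving out VAT-T2DM libraries 2 and 5 as well turned the T and NK cell median to 0.28. Class II antigen presentation genes, which B cells and macrophages use, had a median interaction of -1.82, and -0.56 without that library; Cd74, the invariant chain, was at 5779.9 CPM in it and at 298 to 1363 CPM in the other 4.

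The study's title names growth hormone and adiponectin, and the receptor genes of both had small interactions, with signs that changed between ways of processing or with libraries left out. Ghr, the growth hormone receptor, was at 168 to 369 CPM (median 234) in VAT-DJB, against 217 to 481 CPM (median 309) in VAT-T2DM. Its SAT libraries 1 to 5 had 129.6, 8.82, 97.0, 94.8 and 278 CPM in SAT-DJB, against 88.2, 79.3, 235, 136 and 122 CPM in SAT-T2DM. The interaction of Ghr was -0.25 (SE 0.68), with a 95% interval of -1.67 to 1.17. The adiponectin receptors Adipor1 and Adipor2 had interactions of 0.03 (SE 0.26) and -0.18 (SE 0.65), with 95% intervals of -0.50 to 0.56 and -1.54 to 1.18, so for Adipor1 an interaction of a 2-fold change lay outside the interval. Of 23 growth hormone signalling genes 4 had a higher and 2 a lower interaction at an unadjusted p under 0.05, against 3.42% and 10.5% of all genes. The 4 higher ones were the kinase Jak2 (0.74) and the transcription factors Stat5a (1.54), Stat5b (0.81) and Stat3 (1.13), which carry the signal of the receptor. Interactions of the list ran from -4.92 to 1.54, so the largest in size was a lower one. DESeq2 called 1 gene of the list, with a lower interaction. Stat5a was at 82.9, 67.0, 38.4, 127 and 38.1 CPM in SAT-DJB libraries 1 to 5, against 246, 177, 168, 409 and 39.7 CPM in SAT-T2DM, and differed by -0.02 in VAT. Stat5a is also central to milk production, and its highest SAT value was that of SAT-T2DM library 4, with the largest milk protein share. Jak2 was at 173 and 162 CPM in VAT-DJB libraries 5 and 6 and at 66.0 to 94.1 CPM in the other 4, against 42.0 to 93.8 CPM (median 69.1) in VAT-T2DM. The target genes Socs2, Cish and Igf1 had interactions of 0.57, 1.26 and -0.58, and Lep, the hormone leptin, of -0.71. None of these 4 reached an unadjusted p under 0.05. The sign of Lep also changed between ways of processing, and that of Igf1 only without SAT-DJB library 1. Insr, the insulin receptor, and Pparg, the master regulator of fat cells, had interactions of 1.11 and -1.52.

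Other groups gave smaller or less even differences. Of 15 epithelial markers of mammary gland and skin, 12 had a lower interaction at an unadjusted p under 0.05 and 1 a higher one, against 10.5% and 3.42% of all genes. Their median interaction was -3.90, and -0.54 without VAT-T2DM libraries 2, 3 and 4. These genes include the keratins Krt5 and Krt15, with interactions of -5.97 and -6.00, and keratins were high in the VAT-T2DM libraries with urothelial genes. Branched-chain amino acid breakdown genes were negative for 20 of 20 interactions, against 54.4% of all genes, and 5 had an unadjusted p under 0.05, against 10.5%. Their median interaction was -0.92, which was -0.32 without VAT-T2DM libraries 2 and 5 and -0.58 without library 5 alone. In cholesterol synthesis, Fdft1 (squalene synthase) and Hmgcs1, an early enzyme of the pathway, had interactions of -1.29 and -1.30. The list median was -0.23, and 0.18 with TPM scaling, beside -0.07 and 0.28 over all genes. With 1 library left out the list median was -0.38 to -0.07, nearest to 0 without SAT-DJB library 2.

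Of 17 circadian clock genes 15 had a positive interaction, against 45.6% of all genes, with a median of 0.54 (0.91 without SAT-DJB library 4). Only 1, Bhlhe41, had a higher interaction at an unadjusted p under 0.05, against 3.42% of all genes. Bhlhe41, a repressor within the clock, was at 2.28 to 6.54 CPM (median 5.78) in VAT-DJB, against 1.25 to 8.46 CPM (median 3.71) in VAT-T2DM. Its SAT libraries 1 to 5 had 10.5, 3.71, 8.82, 11.3 and 4.88 CPM in SAT-DJB, against 41.5, 27.0, 14.1, 26.8 and 2.74 CPM in SAT-T2DM, with overlap through SAT-T2DM library 5 alone. Prox1, the master regulator of lymphatic endothelium, was at 1.81 to 4.55 CPM (median 2.92) in VAT-DJB, against 0.0928 to 4.03 CPM (median 1.95) in VAT-T2DM, and at 14.0, 5.32, 3.30, 30.8 and 5.81 CPM in SAT-DJB libraries 1 to 5, against 85.2, 43.1, 69.7, 216 and 1.25 CPM in SAT-T2DM. The SAT-T2DM libraries with high Prox1 and Bhlhe41 were those with a milk protein share of at least 8.65%, and library 5, the lowest for both genes, had 0.0581%; the part of mammary cells was not tested. Lyve1, a receptor of lymphatic vessels and some macrophages, was at 63.2, 60.8, 88.6, 116 and 109.8 CPM in SAT-DJB libraries 1 to 5, against 55.0, 82.2, 119, 42.4 and 295 CPM in SAT-T2DM, where library 5 was the highest. None of the genes that mark the developmental origin of subcutaneous fat (8 tested) or visceral fat (6 tested) had an unadjusted interaction p under 0.05, against 14% of all tested genes, and the same held for 22 immediate early genes.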

How the data were processed

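The deposited table holds raw read counts and FPKM per gene side by side for 22 libraries, per the file headers. The authors used cutadapt 1.9, FastQC and build mRatBN7.2, per the submitters' processing notes. No source used here gives the aligner, counter, strand setting or annotation, so values of near-identical, overlapping or antisense genes are uncertain.

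The deposited counts were tested, and FPKM served for the filter and for limma. A gene was kept when 5 or more libraries had an FPKM of 1 or more. edgeR 4.0.16 in R 4.3.3 fitted 1 mean per group to the 22 libraries (TMM scaling, quasi-likelihood test, two-sided, Benjamini-Hochberg over 14019 genes). SE were taken from each log2 difference and its F statistic. Levels are CPM with TMM factors, and log2 CPM used a prior count of 1. Alternatives were DESeq2 1.42.0, limma 3.58.1 on log2(FPKM + pseudocount), other scalings, removal of the length trend, no filter, a replicate block and libraries left out, some chosen after seeing the data. The tests were checked on simulated data, where 44 of 100 genes with an interaction of 2 on the log2 scale were called, and 86 of 100 with 4. The changed genes were drawn only from genes with higher mean counts. Genes were simulated independently, without the shifts of whole libraries described above, so these shares need not hold for the real libraries. Counting error is small at these depths except for the lowest genes.

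The members and the 45 gene lists were chosen with earlier results of these data known. The text names the 8 genes per direction with the smallest interaction p, genes that moved alike, up to 4 members per list with the smallest interaction p, and 15 axis genes, requiring a named symbol and a group mean FPKM of 2 or more. Other genes were picked after their values were seen.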

Additional observations from a re-analysis of the deposited data

Results flagged for a closer look

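In 18 of 224 groups of libraries examined (8.04%, where chance gives about 1 in 20) the highest or lowest library lay far from the others of its group; values are log2 CPM, averaged over the list for lists.

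In VAT-DJB library 2 the mammary and milk markers were at -3.46, with 1.10 to 2.20 in the other 5 libraries, Sptssb was at -6.02 (others -1.01 to 0.191) and Upk3a at -6.02 (others -1.78 to 0.624), the last 2 being genes at 0 CPM there.

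In VAT-T2DM library 2 the ribosomal protein genes were at 11.3 (others 6.89 to 8.13) and Plekhf1 at 5.52 (others 4.25 to 4.65). In VAT-T2DM library 5 fatty acid oxidation genes were at 9.21 (others 5.81 to 6.99), thermogenic genes at 7.45 (others 3.88 to 5.15), lipolysis and lipid droplet genes at 7.44 (others 6.12 to 6.58) and Irgm at 6.89 (others 5.73 to 6.12).

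In SAT-DJB library 2 the interferon response genes were at 6.19 (others 4.42 to 4.71) and Slc27a1 at 4.09 (others 5.06 to 5.37). The tricarboxylic acid cycle genes were at 7.01 in SAT-DJB library 5 (others 6.04 to 6.31).

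SAT-T2DM library 5 was low for mammary and milk markers at 1.71 (others 7.57 to 8.73), for Inhbb at 3.88 (others 5.87 to 6.52) and for Acot1 at 0.789 (others 4.28 to 5.30). The same library was high for Mrps36 at 3.01 (others 2.72 to 2.79) and for Sh2d4a at 5.41 (others 4.31 to 4.49). In SAT-T2DM library 4, Tec was at 4.12 (others 4.75 to 4.99). The causes were not tested.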

How the results depend on the processing

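The interaction count was 0 under every alternative run except DESeq2 (123) and 1 left-out library (range 0 to 1, Uchl1 without VAT-T2DM library 5 or 6), and the count moving oppositely was 44 with DESeq2 and 0 to 1 with 1 library left out. The counts of genes with a called mean difference and of those that moved alike were 818 and 389 with DESeq2, 224 and 119 with TPM scaling, 180 and 96 with the length trend removed, 5 and 5 with limma at a pseudocount of 1, and 2 and 2 at 0.1. They were 8 and 8 without VAT-T2DM libraries 2, 3 and 4, 18 and 18 when SAT-DJB library 2 was left out too, 103 and 44 without VAT-T2DM libraries 2 and 5, and 73 and 39 when SAT-DJB library 2 was left out too. They were 2 and 2 without VAT-DJB libraries 5 and 6 and again without VAT-DJB libraries 1 and 2, and 18 and 13 without SAT-T2DM library 5 and SAT-DJB library 3. With 1 library left out they ranged from 10 to 428 and from 7 to 212. The causes were not tested.

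Some interactions changed sign. The median interaction of all genes, -0.07 in the main run, was itself 0.28 with TPM scaling. With limma at pseudocounts of 1 and 0.1 that median was 0.18 and 0.26. With TPM scaling Ghr was 0.0252, Irf1 0.0248, D2hgdh 0.13 and Plekhf1 0.26. With limma at pseudocounts of 1 and 0.1, Serpina12 was 1.35 and 1.41, Lep 0.90 and 1.32, Ghr 0.45 and 0.52, Adipor2 0.45 and 0.54, D2hgdh 0.0145 and 0.0583, and Plekhf1 0.13 and 0.14, and at 1 also Ido1 -0.39 and Magix 0.45. With the length trend removed Tec was -0.13, Igtp -0.33, Slc27a1 -0.15 and Plekhf1 0.0134. Without VAT-T2DM libraries 2, 3 and 4, and then also without SAT-DJB library 2, Adora2a was -0.0943 and -0.20, Irgm -0.13 and -0.0337, Igtp -0.33 and -0.0335, Slc27a1 -0.12 and -0.29, and Syt8 1.501 and 1.26, and in the first also Gbp2 -0.0392. Without VAT-T2DM libraries 2 and 5 Tec was -0.0681 and Plekhf1 0.0523. Timp1 was -0.24 without VAT-DJB libraries 5 and 6. Adipor1 was -0.0558 and RGD1305184 -0.0907 without VAT-DJB libraries 1 and 2, and Adipor2 0.0529 without SAT-T2DM library 5 and SAT-DJB library 3. With 1 library left out the range was -0.26 to 1.94 for Ido1, -0.0579 to 0.32 for Irgm, -0.14 to 0.52 for Igtp, -0.36 to 0.37 for Gbp2, -0.21 to 0.82 for Gbp5, -0.27 to 0.23 for Slc27a1, -0.0500 to 0.37 for Tec, -1.74 to 0.73 for Serpina12, -0.0887 to 0.15 for Adipor1, -0.48 to 0.20 for Adipor2, -0.90 to 0.0272 for Igf1, -0.58 to 0.31 for Ghr and -1.998 to 1.94 for Lep.

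Same-numbered libraries did not deviate together (10 pairs, r from -0.167 to 0.276, 2 over 0.1, and 2 best matched to their own number). With the replicate block the interaction count was 0, with 646 genes at an unadjusted p under 0.05, 364 higher and 282 lower (600, 319 and 281 with the length trend removed too). With the block Serpina12 was 0.51, Lep 0.80, Ghr 0.30, Adipor2 0.22 and D2hgdh 0.0265, and with the length trend removed too Serpina12 was 0.62, Igtp -0.0308, Gbp2 -0.0106, Lep 0.62, Ghr 0.11, Adipor2 0.40 and Plekhf1 0.0328. The mean difference was not computed with the block. The left-out sets other than VAT-T2DM libraries 2, 3 and 4 and VAT-T2DM libraries 2 and 5 were chosen after seeing the data. The 95% interval of a typical interaction, 1.10 either way on the log2 scale, and the weight of single libraries limit these results, and at the lowest levels so does depth.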
